A study of Homo sapiens with 4 samples.

Results

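Amino acid transporters of the plasma membrane were examined in HEK-293T cells that lack THUMPD1, the RNA-binding partner of the acetyltransferase NAT10 in tRNA acetylation. The 10 genes were SLC7A1, SLC7A2, SLC7A5, SLC7A6, SLC3A2, SLC38A1, SLC38A2, SLC1A4, SLC1A5 and SLC6A9. They were listed by symbol for the transport they carry out, though with earlier results of these data known. All 10 were found among the 18917 genes of the count table. RNA-seq had been made from 4 libraries, 2 from wild-type (WT) cells and 2 from THUMPD1 knockout (KO) cells. HEK-293T is an immortalized human embryonic kidney line, which the sample labels call HEK293. Cells of both genotypes were grown in DMEM with 10% fetal bovine serum and 2 mM glutamine, and the labels name no other treatment. The KO was made by CRISPR-Cas9 and cells were sorted singly, so an effect of the genotype and one of the clone cannot be told apart. Whether libraries of a genotype came from separate cultures is not stated, so p-values measure only the spread between these libraries, which may be technical. The study's methods give 3 samples per genotype and another library kit for RNA-seq of this line than the labels do, and which of its RNA experiments these counts come from is not stated.

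Amino acids enter cells through solute carriers of the plasma membrane. Some carriers follow the sodium gradient and accumulate small neutral amino acids, glutamine above all, while others exchange one amino acid for another and so import leucine and other large neutral amino acids. Several of these genes are textbook targets of ATF4, the transcription factor that is translated when uncharged tRNA or another stress activates the kinases of the integrated stress response. Proliferating cells in culture rely on them for glutamine, leucine and arginine.

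Total counts ran from 7875722 in WT replicate 1 to 11362363 in WT replicate 2, so that 3 counts, taken as the floor, were worth 0.259 to 0.391 CPM (counts scaled to a common library size, here on sizes scaled by edgeR's TMM method). Without molecular identifiers in the data, such floors reflect counting error alone. THUMPD1 itself had 356 and 468 counts in WT cells against 71 and 58 in KO cells, a log2 fold change of -2.93 ± 0.17 (SE). VIM and KRT18, markers of the line, were present at 338 and 51.8 CPM in KO cells, PAX2 and KRT8 at 7.25 and 7.85 CPM. PTPRC, ALB and PECAM1, which mark leukocytes, hepatocytes and endothelium, had at most 5 counts in any library, while COL1A1, a fibroblast marker, had 23 CPM in WT cells against 19.9 CPM in KO cells. KRT18 was called lower in KO cells (log2 fold change -0.35), and the other markers tested were not called. Of 13128 genes tested, 1154 were higher and 1594 lower in KO cells at an adjusted p under 0.05 (edgeR quasi-likelihood test, Benjamini-Hochberg adjusted), and with library size alone as the scale 2081 were higher and 1158 lower. The median log2 fold change over all genes was 0.01, or 0.09 with library size alone.

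Among the 10 transporters, transcripts of SLC38A1 and SLC7A1 rose in KO cells (1.29-fold and 1.27-fold) and those of SLC1A5 fell (0.814-fold). These 3 calls are 30% of the members, beside 20.9% of all genes called. The 2 members called higher stand beside 8.79% of all genes, and the 1 called lower beside 12.1%. The median log2 fold change of the members was 0.09, and 6 of 10 lay above 0. In 7 members the CPM of the KO libraries did not overlap those of the WT libraries, 4 above and 3 below, beside 60.3% of all genes tested, so the share without overlap was near that of the table. Summed over the 10 genes, the CPM were 1641 ± 46.1 for WT against 1724 ± 20.8 for KO (SD, n = 2 per genotype), a ratio of 1.05. In bulk RNA, fewer cells that express a gene and less RNA per cell cannot be told apart.

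**Figure D1:**
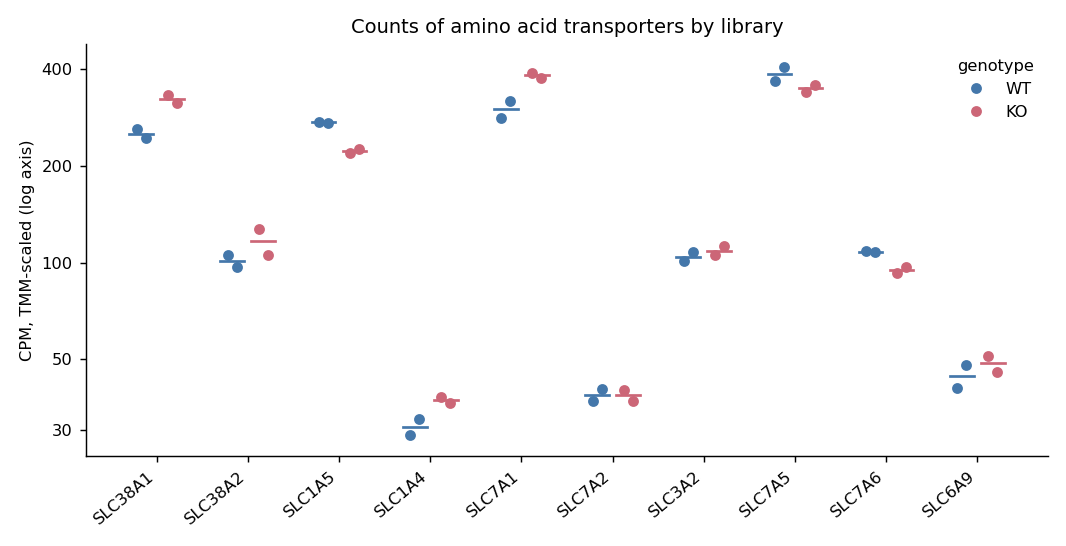
TMM-scaled CPM (log axis) of each transporter in every library, with points for libraries and lines for the mean of each genotype. The KO libraries lie above the WT libraries for SLC38A1 and SLC7A1 and below them for SLC1A5, and the points of SLC7A2, SLC3A2 and SLC6A9 overlap.

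Levels of different genes were compared as CPM per kilobase of the longest annotated transcript. SLC1A5 had the highest such level in WT cells, 95 ± 0.759, followed by SLC7A5 at 84.9 ± 6.04 (SD, n = 2). SLC7A1 stood at 40.9 ± 3.34, SLC3A2 at 36.7 ± 1.89 and SLC38A1 at 31.1 ± 1.4, and then came SLC38A2 at 21.2, SLC7A6 at 17.2 and SLC6A9 at 13.8. SLC1A4 at 5.33 ± 0.437 and SLC7A2 at 5.08 ± 0.307 were the lowest and overlapped each other. A glutamine exchanger thus stood at the top, and a neutral exchanger and a cationic carrier shared the lowest place. With the length of the canonical transcript, SLC3A2 came to 55.4 and took the place above SLC7A1, and SLC1A4 came to 6.76 and no longer overlapped SLC7A2. In KO cells SLC1A5 (76.2 and 78.4) and SLC7A5 (74.7 and 78.5) were no longer separated by their spread. By the longest transcript, SLC38A1 stood at 40.1 ± 1.65 in KO cells and overlapped SLC3A2 at 38.5 ± 1.84, SLC6A9 at 15.1 overlapped SLC7A6 at 15, and SLC7A1 stood at 52.1 ± 1.38.

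SLC38A1 (SNAT1) and SLC38A2 (SNAT2) are sodium-coupled carriers that concentrate glutamine and other small neutral amino acids in the cell. SLC38A1 lies on chromosome 12 of GRCh38, chr12:46183063-46270017 on the minus strand, beside SLC38A2 at chr12:46358188-46372773 on the same strand. SLC38A1 had 260 and 244 CPM in the WT libraries and 334 and 315 CPM in the KO libraries. Both KO libraries were higher than either WT library, by more than the spread within a genotype. The log2 fold change was 0.37 ± 0.06 (SE), or 1.29-fold, with an adjusted p of 0.000143 (edgeR quasi-likelihood test, Benjamini-Hochberg adjusted). SLC38A2 had 106 and 96.6 CPM in WT and 127 and 106 CPM in KO cells, so that KO replicate 2 was level with WT replicate 1. Its log2 fold change of 0.21 ± 0.09 did not pass (adjusted p = 0.0876, edgeR quasi-likelihood test, Benjamini-Hochberg adjusted). That call rested on single libraries, since SLC38A2 passed without WT replicate 1 (log2 fold change 0.28) and without KO replicate 2 (0.33), while its value was 0.07 without KO replicate 1. It also passed with library size alone as the scale (0.29).

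SLC1A5 (ASCT2) and SLC1A4 (ASCT1) are sodium-dependent exchangers of neutral amino acids, and SLC1A5 is the main exchanger of glutamine in many cultured cells. SLC1A5, at chr19:46774883-46788594 on the minus strand, had 275 and 272 CPM in WT and 220 and 226 CPM in KO cells. The KO libraries lay below the WT libraries, and libraries of a genotype differed by less than 10 CPM. The log2 fold change was -0.30 ± 0.06, or 0.814-fold (adjusted p = 0.00113, edgeR quasi-likelihood test, Benjamini-Hochberg adjusted). Its paralog SLC1A4, at chr2:64988477-65023865, went the other way in value, with 29.1 and 32.6 CPM in WT and 38.0 and 36.4 CPM in KO cells. Both KO libraries were above the WT libraries, but the log2 fold change of 0.26 ± 0.13 did not pass (adjusted p = 0.139, edgeR quasi-likelihood test, Benjamini-Hochberg adjusted) except with library size alone as the scale (log2 fold change 0.35).

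SLC38A1 and SLC1A5, both carriers of glutamine, thus moved in opposite directions. Their counts were also compared as ratios within each library, where no scaling between libraries enters. The ratio of SLC38A1 to SLC1A5 counts was 0.943 and 0.895 in the WT libraries and 1.52 and 1.39 in the KO libraries. SLC1A5 had the higher count of the pair in both WT libraries and SLC38A1 in both KO libraries, and the ratio of the means was 1.59. The ratio of SLC38A2 to SLC1A5 was 0.386 and 0.355 in WT and 0.579 and 0.471 in KO cells, also without overlap. Summed per kilobase, SLC1A5, SLC38A1 and SLC38A2 came to 147 ± 3.60 CPM for WT against 142 ± 3.16 CPM for KO (SD, n = 2). The difference in that sum was of the order of the spread within a genotype. These ratios were chosen with the values known and carry no test.

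**Figure D2:**
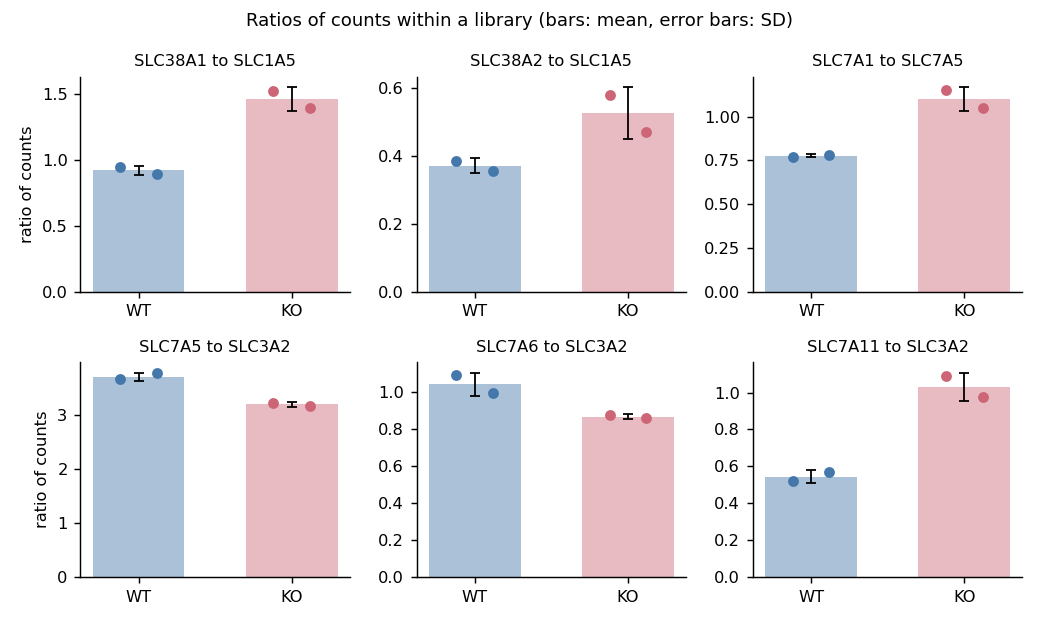
Ratios of counts of pairs of carriers within each library, with bars for the mean, error bars for the SD and points for the 2 libraries per genotype. The mean of SLC38A1 to SLC1A5 is 0.919 in WT and 1.46 in KO cells, and that of SLC7A11 to SLC3A2 is 0.544 and 1.03.

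SLC7A1 (CAT1) and SLC7A2 (CAT2) carry arginine, lysine and ornithine without sodium, and SLC7A1 is the widespread form. SLC7A1, at chr13:29509414-29595688 on the minus strand, had 283 and 318 CPM in the WT libraries and 390 and 376 CPM in the KO libraries. The WT libraries differed more from each other than the KO libraries did, and all KO values were higher. The log2 fold change was 0.35 ± 0.06, or 1.27-fold (adjusted p = 0.000329, edgeR quasi-likelihood test, Benjamini-Hochberg adjusted). SLC7A2, on chromosome 8 from 17497088 to 17570573, had 37.1 and 40.5 CPM in WT and 40.1 and 37.0 CPM in KO cells. Its libraries overlapped fully, and the 95% interval of its log2 fold change (-0.01 ± 0.12) ran from -0.25 to 0.23. Under library size alone and upper quartile scaling the value of SLC7A2 was 0.07 and 0.01. The related SLC7A3 (CAT3), which is no member, had 13.7 and 15.1 CPM in WT and 8.37 and 9.57 CPM in KO cells and was called lower (log2 fold change -0.69 ± 0.21). Its call was lost without WT replicate 2 (log2 fold change -0.61), without KO replicate 1 (-0.59) and with DESeq2 (-0.69, adjusted p = 0.079). Per kilobase, the 3 cationic carriers summed to 52.4 ± 4.09 CPM for WT against 61.2 ± 1.29 CPM for KO, and SLC7A1 made up most of that sum.

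SLC3A2 (4F2hc, CD98) is the heavy chain that brings light chains of the SLC7 family to the plasma membrane, and SLC7A5 (LAT1) and SLC7A6 (y+LAT2) are light chains that bind it. LAT1 exchanges large neutral amino acids such as leucine for intracellular ones, and y+LAT2 exchanges cationic for neutral amino acids. SLC3A2, at chr11:62856004-62888880, had 101 and 108 CPM in WT and 106 and 113 CPM in KO cells. Its libraries overlapped, and its log2 fold change of 0.06 ± 0.08 had a 95% interval from -0.10 to 0.22. SLC7A5, at chr16:87830023-87869507 on the minus strand, had 367 and 406 CPM in WT and 341 and 358 CPM in KO cells. Both KO libraries were below the WT libraries, but the gap was smaller than the difference between the WT libraries. Its log2 fold change of -0.15 ± 0.06 did not pass (adjusted p = 0.0966, edgeR quasi-likelihood test, Benjamini-Hochberg adjusted), and it passed without WT replicate 1 (log2 fold change -0.22). SLC7A6, at chr16:68264516-68301823, had 109 and 108 CPM in WT and 92.5 and 96.7 CPM in KO cells. The KO libraries were lower, with a log2 fold change of -0.20 ± 0.08 that did not pass (adjusted p = 0.0721, edgeR quasi-likelihood test, Benjamini-Hochberg adjusted).

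Among light chains that are no members, SLC7A11 and SLC7A8 were called in opposite directions. SLC7A11 (xCT), the light chain of the cystine and glutamate exchanger, had 52.1 and 61.6 CPM in WT and 115 and 110 CPM in KO cells. It was called higher with a log2 fold change of 0.98 ± 0.09, or 1.97-fold (adjusted p = 1.55e-08, edgeR quasi-likelihood test, Benjamini-Hochberg adjusted). SLC7A8 (LAT2), a light chain for neutral amino acids, had 31.5 and 28.6 CPM in WT and 17.2 and 16.6 CPM in KO cells and was called lower (log2 fold change -0.83 ± 0.15). Against the shared heavy chain, the ratio of SLC7A5 to SLC3A2 counts was 3.65 and 3.76 in WT and 3.22 and 3.16 in KO cells. That of SLC7A11 to SLC3A2 was 0.518 and 0.569 in WT and 1.09 and 0.976 in KO cells, so that it was higher in both KO libraries while that of SLC7A5 was lower in both. The ratio of SLC7A6 to SLC3A2 was 1.09 and 0.996 in WT and 0.876 and 0.856 in KO cells. These ratios to SLC3A2 carry no test either, and SLC7A5 and SLC7A6 themselves were not called. Per kilobase, the light chains SLC7A5, SLC7A6, SLC7A7, SLC7A8, SLC7A10 and SLC7A11 summed to 115 ± 6.08 CPM for WT against 108 ± 2.91 CPM for KO (SD, n = 2).

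SLC7A5 and SLC7A6 lie on chromosome 16, whose genes as a whole were lower in KO cells. THUMPD1, the gene that was knocked out, lies on the same chromosome, at chr16:20702816-20742084. The median log2 fold change of the 573 tested genes of chromosome 16 was -0.44, with 290 called lower (50.6%) and 5 called higher. Chromosome 22 had a median of -0.42, and the medians of the other 21 chromosomes (Y left out) ran from -0.06 to 0.10. SLC7A5 and SLC7A6 were less low than most of their chromosome, since 119 (20.8%) of the genes of chromosome 16 had a higher log2 fold change than SLC7A5 and 155 (27.1%) a higher one than SLC7A6. Relative to the chromosome median their values were 0.29 and 0.24, the reverse of their sign relative to all genes. The 8 members on other chromosomes had a median of 0.17. Among the 5 nearest tested genes on each side of SLC7A5, the median was -0.27 and 3 were called lower, namely ZC3H18 (-0.58), CYBA (-3.41) and MVD (-1.01), all on the side of higher coordinates. Around SLC7A6 the median was -0.17, and PRMT7 (-0.34) was called lower, though not without WT replicate 1 (-0.30) or KO replicate 1 (-0.29), with library size alone (-0.26) or with DESeq2 (adjusted p = 0.0891). Beside the medians of these neighbours, SLC7A5 at -0.15 was less low, while SLC7A6 at -0.20 was not. What part the chromosome has in the values of SLC7A5 and SLC7A6 was not tested.

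**Figure D3:**
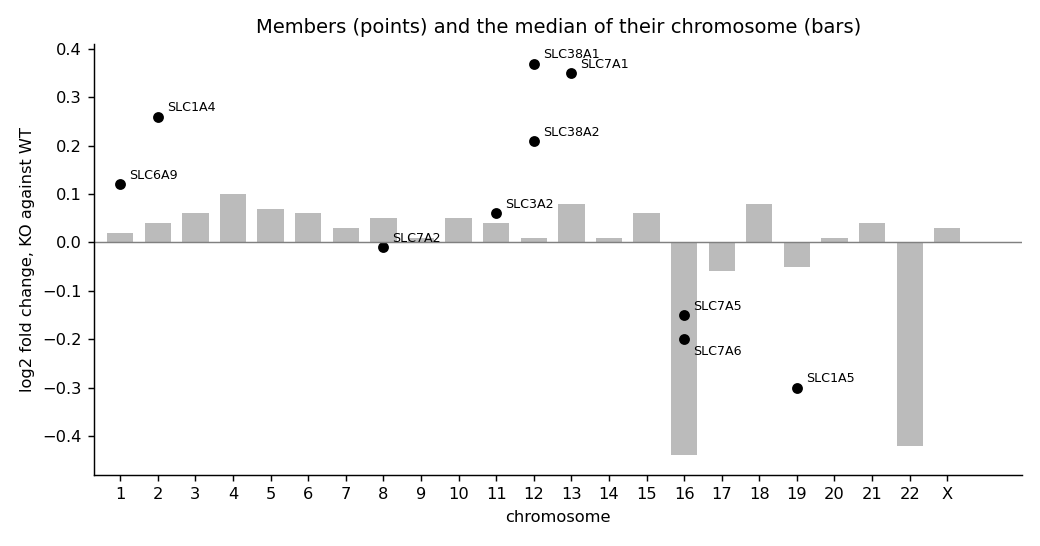
Log2 fold change (KO against WT) of each transporter as a point over its chromosome, with bars for the median over the tested genes of that chromosome. SLC7A5 and SLC7A6 lie below 0 but above the median of chromosome 16 (-0.44), and SLC1A5 lies at -0.30 where the median of chromosome 19 is -0.05.

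SLC6A9 (GlyT1), the sodium- and chloride-dependent glycine carrier, had 40.7 and 48.0 CPM in WT and 51.3 and 45.7 CPM in KO cells. KO replicate 2 fell between the WT libraries. The log2 fold change of SLC6A9, at chr1:43991500-44031467 on the minus strand, was 0.12 ± 0.11, with a 95% interval from -0.11 to 0.36.

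**Figure D4:**
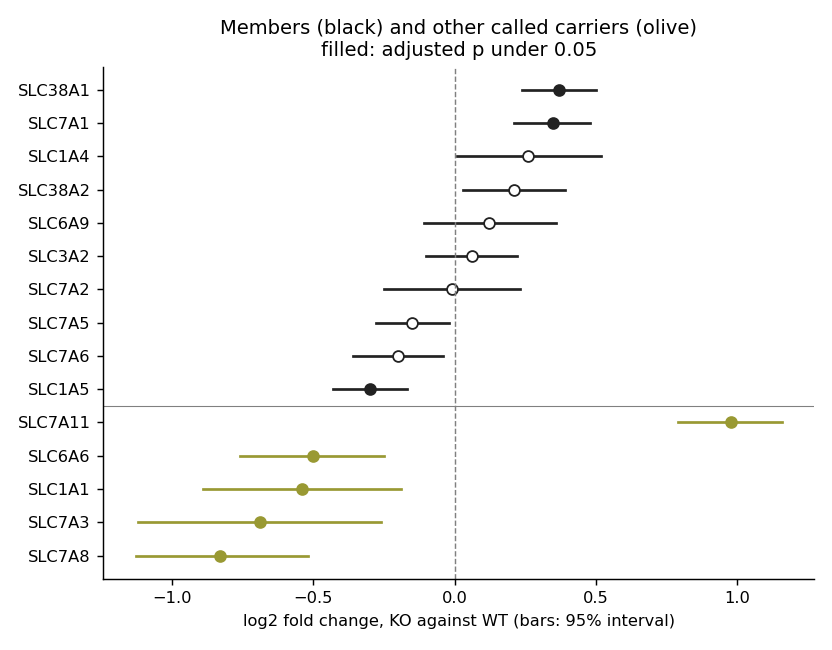
Log2 fold change (KO against WT) with its 95% interval for the 10 members (black) and for the other plasma membrane carriers that were called (olive), with filled points for an adjusted p under 0.05. The members lie between -0.30 and 0.37, and SLC7A11 at 0.98 and SLC7A8 at -0.83 lie outside that range.

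Counts of some members can hold reads of other genes, because the labels and methods do not state whether strand was used in counting. SLC7A6 shares 3372 of its 7588 exon bases with SLC7A6OS on the other strand, and SLC7A6OS had a log2 fold change of 0.13 and was not called. SLC1A5 shares 780 of 3332 exon bases with an antisense lncRNA, and SLC6A9 shares 413 of 5249 with CCDC24. SLC7A5 shares 271 of 4764 exon bases with an antisense lncRNA. Its transcript is, up to base 623, 95.6% to 96.7% identical to the pseudogenes SLC7A5P1 and SLC7A5P2 and to 2 lncRNAs. The values of these 4 genes are therefore uncertain to that extent, and the other 6 members share no exon bases with another annotated gene.

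Short motifs in the promoters are shown here because ATF4 with a C/EBP partner binds sites of the form TGATGNAA, and MYC and related factors bind the E-box CACGTG. RefSeq promoter windows of 300 bases (250 before and 50 after each start site, GRCh38.p14) were used for 9 members, 15 windows in all. SLC7A2 was left out. TGATGNAA was found on either strand in 5 of the 15 windows, beside 3.62% of all 35116 windows. These windows belong to 5 of the 9 members, beside 4.46% of all genes. Several members are textbook targets of ATF4, so these shares tell nothing about the KO. CACGTG was found in 2 windows, beside 7.26% of all windows. The sites are printed on the strand of the gene, 5′ to 3′, with the match in capitals (TTNCATCA is the same motif on the other strand), and no 2 matches overlap:
SLC38A1: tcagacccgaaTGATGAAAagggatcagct
SLC7A1: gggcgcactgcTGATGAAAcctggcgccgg
SLC1A4: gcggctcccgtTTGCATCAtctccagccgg
SLC3A2: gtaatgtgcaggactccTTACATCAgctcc
SLC1A5: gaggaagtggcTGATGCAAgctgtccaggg
SLC7A5, E-box: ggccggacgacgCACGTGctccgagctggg
SLC1A5, E-box: ggcgggagtggtCACGTGgacaggacgggg

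The site of SLC38A1 is at chr12:46266502-46266531, with the match beginning 4 bases before a RefSeq start site, inside the gene but in no exon of GENCODE 44. That of SLC7A1, at chr13:29595663-29595692, begins 7 bases after its start site, where exon and 5′ UTR are annotated. TGATGNAA was found in both genes called higher, in SLC1A5, which was called lower, and in SLC1A4 and SLC3A2, which were not called. The sites of SLC1A4 (chr2:64989381-64989410) and SLC3A2 (chr11:62881719-62881748) begin 7 bases before and 37 bases after a start site. That of SLC1A4 overlaps an annotated exon and UTR, and that of SLC3A2 overlaps annotated exon, UTR and coding sequence. SLC1A5, which fell, holds TGATGCAA 97 bases before an internal start site (chr19:46784893-46784922) and the E-box 50 bases before another (chr19:46787326-46787355), both in annotated exons. The E-box of SLC7A5 lies 130 bases before its start site, upstream of the gene (chr16:87869620-87869649). A match is a description of the letters, and binding was not measured.

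The coding sequences of the members differ widely in leucine codons, which bears on THUMPD1 because leucine and serine tRNAs carry the acetylated base. Serine codons were not counted here. UUA, UUG, CUU and CUA, grouped as U/A-rich leucine codons in the study, made up 71.6% of the leucine codons of SLC38A2 and 64.6% of those of SLC38A1. The median over 12923 tested genes was 40.9%. SLC7A5 stood at the other end with 7.04% (5 of 71 leucine codons), and SLC6A9 had 14.9% and SLC1A5 19.5%. SLC7A2 had 50.6%, and SLC7A6, SLC3A2, SLC7A1 and SLC1A4 had 32.2%, 30.5%, 29.6% and 23.2%. All 10 members had more leucine than the median of tested genes, 11.5% to 15.5% of codons beside 9.74%. Translation was not measured in these libraries. In the paper, reporters with repeated UUA or CUA codons gave no significant difference in protein between KO and WT cells. It did find U/A-rich leucine codons more often in transcripts with decreased than with increased translation efficiency.

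Of 36 other plasma membrane carriers and partner subunits, 16 passed the filter of 1 CPM in 2 libraries, and 5 of these were called, 1 higher and 4 lower (31.2%, beside 20.9% of all genes), with a median of -0.03. Besides SLC7A11, SLC7A8 and SLC7A3, these were SLC1A1 (EAAT3), a carrier of glutamate and cysteine, and SLC6A6 (TauT), the taurine carrier. SLC6A6 had 38.3 and 40.8 CPM in WT and 27.8 and 28.1 CPM in KO cells (log2 fold change -0.50 ± 0.12). SLC1A1 had 21.0 and 21.5 CPM in WT and 13.1 and 16 CPM in KO cells (log2 fold change -0.54 ± 0.17), and its call was lost without WT replicate 2 (-0.53), without KO replicate 1 (-0.40) and with DESeq2 (-0.54, adjusted p = 0.095). Of 10 lysosomal carriers listed, 8 were tested, with a median of -0.13 and 12.5% called, and SLC17A5, which exports sialic acid and acidic amino acids, was the 1 called (-0.44). Its call held under 4 of 11 alternatives and was lost without WT replicate 1 (-0.32), KO replicate 1 (-0.51) or KO replicate 2 (-0.37).

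Of 12 mitochondrial carriers listed, 11 were tested, of which 3 were called lower and 1 higher (36.4% called, beside 20.9% of all genes), with a median of 0.00. SLC25A22, a glutamate carrier, had a log2 fold change of -0.60, SLC25A38, which brings in glycine for heme synthesis, of -0.36, and SLC25A15, the ornithine carrier, of -0.32. SFXN1, a serine carrier, had 0.19. Each of these calls depended on the tool and on single libraries. With DESeq2 all 4 were lost (adjusted p from 0.0571 for SFXN1 to 0.158 for SLC25A15). With library size alone as the scale SLC25A38 (-0.27) and SLC25A15 (-0.24) were lost, and SLC25A15 also with upper quartile scaling (-0.30) and with limma-voom (-0.31). Without WT replicate 2 all 4 were lost (-0.51 for SLC25A22, -0.33 for SLC25A38, -0.26 for SLC25A15 and 0.15 for SFXN1). Without KO replicate 1 those of SLC25A22 (-0.60), SLC25A38 (-0.32) and SLC25A15 (-0.21) were lost, and without KO replicate 2 those of SLC25A22 (-0.60) and SFXN1 (0.15).

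Of 14 regulators of these carriers listed, 12 were tested, of which 3 were called higher and 2 lower (41.7% called, beside 20.9% of all genes), with a median of -0.10. NEDD4L, a ubiquitin ligase that marks membrane transport proteins for removal, had 46.9 and 42.2 CPM in WT and 29.9 and 27.2 CPM in KO cells (log2 fold change -0.64, adjusted p = 0.000502, edgeR quasi-likelihood test, Benjamini-Hochberg adjusted). EIF2AK4 (GCN2), the kinase that senses uncharged tRNA, and CEBPG, a C/EBP partner of ATF4, both had log2 fold changes of 0.33. The regulators DDIT3 (log2 fold change -0.19), CEBPB (-0.34) and TRIB3 (0.12) of the same list were not called. ATF4 had 838 and 835 CPM in WT and 938 and 934 CPM in KO cells (log2 fold change 0.16), on chromosome 22, where 14 of 311 tested genes had a higher value. MYC had -0.20. The calls of EIF2AK4 and CEBPG were lost without WT replicate 2 (0.32 and 0.26), without KO replicate 1 (0.20 and 0.29) and with DESeq2 (adjusted p = 0.073 and 0.0911). That of MYC was lost without WT replicate 2 (-0.13), KO replicate 1 (-0.19) or KO replicate 2 (-0.20), and it held under 4 of 11 alternatives. That of ATF4 was lost with each of the 4 libraries left out in turn (0.16 to 0.17). The paper reports that the KO alone was not enough to activate ATF4 in this line. It found no rise of ATF4 targets such as ASNS and no significant evidence for less charging of leucine tRNA. In the same line it reports a subtle rise in phosphorylation of eIF2α, the target of GCN2, which was sensitive to a GCN2 inhibitor. It also reports more ribosome collisions at some leucine and serine codons and less new protein synthesis. The paper allows that compensating changes in the line may blunt the stress response. Whether ATF4 has a part in the values given here was not tested.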

How the data were processed

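The authors deposited whole-number counts per gene symbol and library, without normalization. The labels name build hg19, and the study's methods name STAR and RSEM on GRCh38 for RNA-seq and hg19 for ribosome profiling. Which pipeline and counter made the table is not given in the sources used here. The authors' own table of KO against WT (means, log2 fold changes, errors, p-values) was not used. Column names matched the labels, and 0 columns were left unmapped.

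The test was edgeR 4.0.16 in R 4.3.3 (TMM, glmQLFit, glmQLFTest), run on every gene that reached 1 CPM in 2 or more libraries. Adjusted p-values are Benjamini-Hochberg, called under 0.05. SE was the log2 fold change over the root of F. Permuting 2 against 2 libraries exactly cannot give a p below 0.333. Libraries of a genotype differed by more than sampling noise (chi-square per degree of freedom 4.14 for WT, 7.20 for KO). The script was tested on simulated data with changes larger than those of the members. That test does not bear on changes of the members' size. Alternatives were library size alone, upper quartile scaling, DESeq2 1.42.0, limma 3.58.1 (voom, quantile), other filters and thresholds, a replicate block and each library left out, where the lone library is assumed to vary like the others.

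Members and lists were chosen with earlier results of these data known. Named genes are the members, THUMPD1, ATF4, SLC7A11, the called plasma membrane carriers and at most 4 called genes per other list. DDIT3, CEBPB and TRIB3, which were not called, and 5 tested genes on each side of SLC7A5 and SLC7A6 are also named. Coordinates, lengths, exons and codons are from GENCODE 44 on GRCh38, which placed 13013 tested genes (12167 by symbol, 846 by a RefSeq synonym). The counts carry no coordinates. Near-identical transcripts were sought with blastn 2.17.0 (at least 200 bases, 90% identity). Python 3.11.15, pandas 2.3.3 and matplotlib 3.10.9 served for tables and figures. No promoter window of SLC7A2 and no protein sequences were used here.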

Additional observations from a re-analysis of the deposited data

How the results depend on the processing

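SLC38A1, SLC7A1 and SLC1A5 were called in the same direction under all 11 alternative fits, with log2 fold changes of 0.32 to 0.45, 0.27 to 0.44 and -0.32 to -0.21. The number of members called was 5 with library size alone, and 3 to 5 with a library left out. With the replicate block 6 were called, SLC38A2, SLC7A5 and SLC7A6 besides the others. Across genes, the deviations of WT replicate 1 and KO replicate 1 from their group means had a correlation of 0.0243. That value cannot settle whether same-numbered libraries were made together, which is not stated. Of all genes, 1764 were called by DESeq2, 1594 at an adjusted p of 0.01, 3222 with the replicate block, and 1620 (without KO replicate 1) to 2591 with a library left out. SLC7A2 changed sign with library size alone (0.07), with upper quartile scaling (0.01) and in the range with a library left out (-0.07 to 0.06). SLC7A5 and SLC7A6 changed sign relative to the median of chromosome 16 (0.29 and 0.24). Among neighbours that were not called, MAP1LC3B (-0.01 to 0.20), BANP (-0.05 to 0.14), SMPD3 (-0.14 to 1.4) and ZFP90 (-0.06 to 0.22) changed sign with a library left out. With canonical transcript length, levels in WT cells moved for SLC3A2 (55.4 CPM per kb) and SLC1A4 (6.76). The cause of these changes was not tested. With 2 libraries per genotype, members at 30 to 50 CPM had an SE of 0.11 to 0.13 on the log2 scale, and differences inside intervals such as that of SLC7A2 (-0.25 to 0.23) were not detectable at this depth.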
